A study of Mus musculus with 9 samples.

Results

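Granzymes and perforin are the cargo of the cytotoxic granules of killer lymphocytes, and 10 of their genes were followed here by symbol (Gzma, Gzmb, Gzmc, Gzmd, Gzme, Gzmf, Gzmg, Gzmk, Gzmm and Prf1) among 24391 genes in the count tables. All 10 were found. RNA was sequenced from mouse CD8+ T cells in 9 libraries. The 5 untreated (NT) libraries came from cells activated for 72 h, and the 4 LSD1i libraries from cells activated for 72 h with an inhibitor of LSD1, an enzyme that removes methyl groups from histone H3 as part of repressor complexes. Cells of both groups were kept in medium with interleukin 2 at 100 U/mL. The labels give no strain, age, inhibitor name or dose, and do not say whether replicates were separate animals or cultures. The p-values therefore reflect only how far these libraries differ, and that spread could be technical.

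Perforin, encoded by Prf1, forms pores in the membrane of a target cell, and granzymes are serine proteases that enter through them and cleave substrates inside the target. Granzyme A cuts after basic residues (tryptase), granzyme B after aspartate, which lets it start apoptosis, and granzyme M after methionine or leucine, while granzyme K is a tryptase like granzyme A. In the mouse, Gzmb lies in 1 cluster with Gzmc, Gzmd, Gzme, Gzmf and Gzmg, copies that arose by duplication, and Gzma lies beside Gzmk. Naive CD8+ T cells hold little of these transcripts, and activation with interleukin 2 brings up Gzmb and Prf1.

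The deposited raw and batch-corrected tables disagree on the names of 4 libraries: NT 1, NT 2, LSD1i 1 and LSD1i 2 of the raw table hold the libraries called LSD1i 1, LSD1i 2, NT 1 and NT 2 in the batch-corrected table, and the labels do not settle which is right. The other 5 libraries carry 1 name in both. Names below are those of the batch-corrected table unless stated, and every direction drawn from replicates 1 and 2 rests on them. The correction moved replicates 1 and 2 against replicates 3 to 5, and these 2 sets are called batches although the labels name none. Raw totals were 15200000 to 29200000 reads per library, and ribosomal precursor Rn45s took 13.3% of the reads in NT 1 and 1.66% to 2.87% in the rest. All 11 T cell and CD8 markers were detected, with a summed level of 2946 to 3249 CPM (counts relative to library size after TMM scaling) in NT and 3330 to 3471 in LSD1i.

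Of the 10 genes, 6 passed the low-count filter (Prf1, Gzmb, Gzmc, Gzmf, Gzma and Gzmm) and Gzmd, Gzme, Gzmg and Gzmk did not. In the batch-corrected counts 1 of the 6, Gzmc, was lower in LSD1i at an adjusted p under 0.05 and 0 were higher (edgeR quasi-likelihood test, Benjamini-Hochberg over 11981 genes). Over all tested genes 3.31% passed in either direction and 1.16% were called lower. The log2 fold change of LSD1i over NT was below 0 for 5 of the 6 and above 0 for Gzmm, with a median of −0.46 beside −0.02 over all tested genes, of which 54.4% were below 0. The median of the 6 was −0.25 without NT 5, −0.31 in raw counts with the replicate block, and 0.15, with 2 of 6 below 0, under the names of the raw table with that block. NT 5 is the only library with its number, so every blocked fit takes nothing from it for the group effect. Blocked fits and fits without NT 5 are thus not separate checks on that library. Fewer cells that express a gene and less RNA of it per cell cannot be told apart in these bulk libraries.

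**Figure D1:**
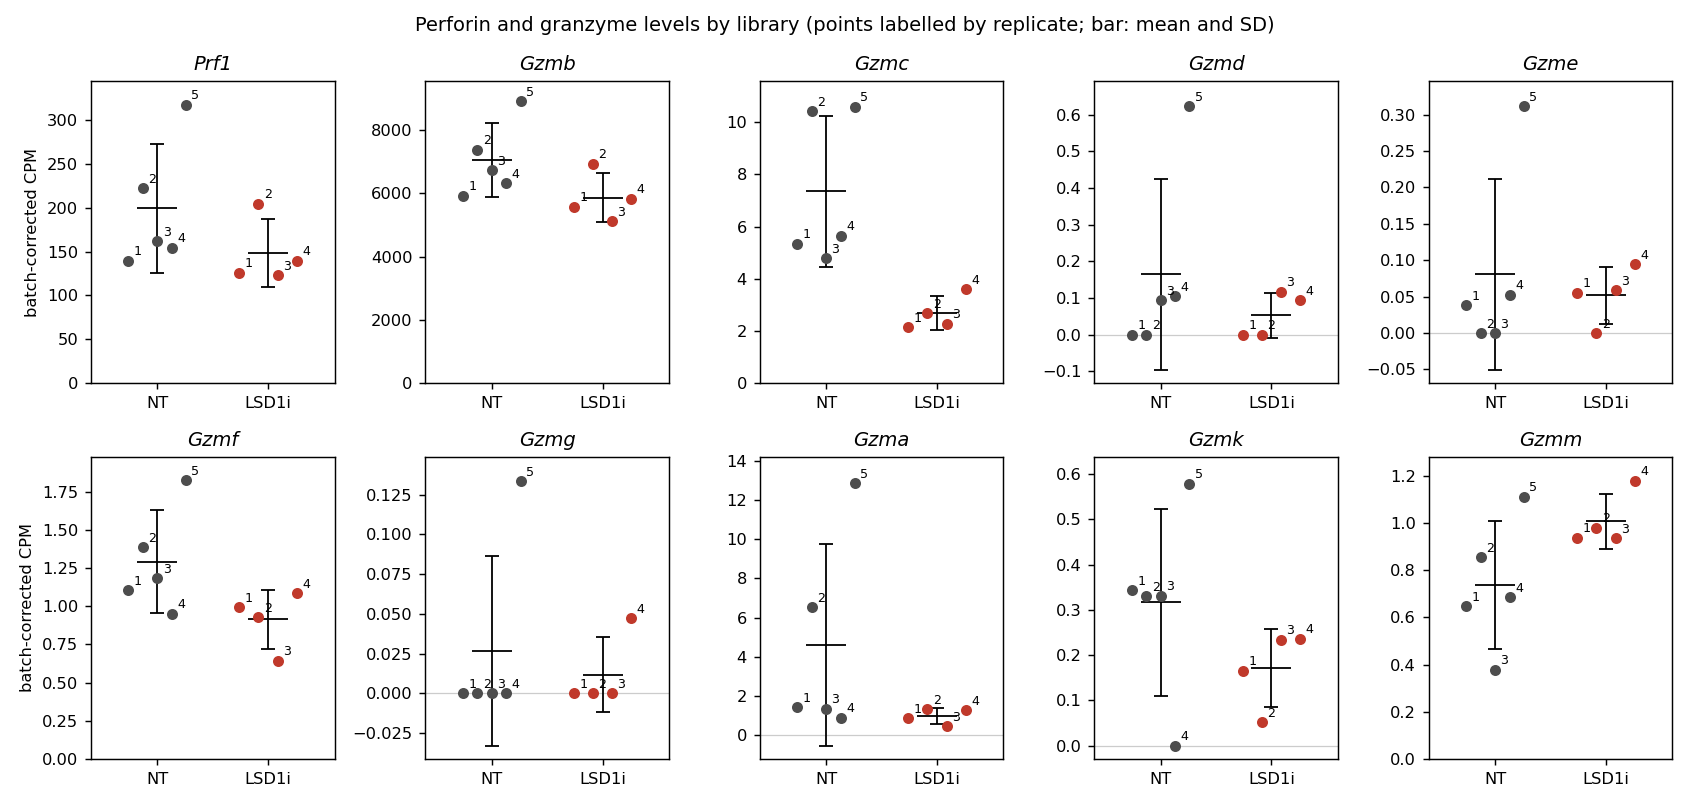
Batch-corrected CPM (vertical axes, linear) of the 10 genes in each of 5 NT and 4 LSD1i libraries; numbers give the replicate, long ticks the mean and bars the SD. Only for Gzmc do all 4 LSD1i points, 2.15 to 3.59 CPM, sit below all 5 NT points, 4.78 to 10.6 CPM, and NT 5 is the highest NT library in each panel.

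Per kilobase of exon, Gzmb was the most abundant of the 10 genes in NT cells at 4912 ± 811 CPM per kb (SD, n = 5). Prf1 followed at 77.1 ± 28.4, then Gzmc at 8.23 ± 3.23, Gzma at 4.59 ± 5.12 and Gzmf at 1.40 ± 0.367 CPM per kb. Gzmm stood at 0.50 ± 0.184 and Gzmk at 0.228 ± 0.148, and Gzmd, Gzme and Gzmg were each at or below 0.171 CPM per kb. The steps from Gzmb to Prf1 and from Prf1 to Gzmc were larger than the SDs on either side of them, whereas Gzmc and Gzma, and Gzmk and Gzmd, overlapped within theirs. LSD1i cells kept the order of Gzmb, Prf1 and Gzmc, at 4083 ± 536, 57.4 ± 14.8 and 2.99 ± 0.726 CPM per kb (SD, n = 4).

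Prf1 was at 140, 223, 162, 154 and 318 CPM in NT 1 to NT 5 and at 126, 205, 123 and 140 CPM in LSD1i 1 to LSD1i 4. NT 5 stood above every other library, and the remaining NT values overlapped those of LSD1i. The log2 fold change was −0.42 ± 0.24 (SE, adjusted p = 0.489, edgeR). Leaving out NT 5 brought it to −0.19 with an adjusted p of 0.671. In raw counts with the batch as a term it was −0.59 (adjusted p = 0.502), and −0.26 (adjusted p = 0.276) once NT 5 was also left out, a fit chosen after seeing the data. By replicate number, raw Prf1 in NT and LSD1i was at 191 and 156, 218 and 192, 133 and 97.2, and 126 and 116 CPM. How many of all tested genes were lower in LSD1i at every number was not counted. The numbers are also not established as pairs. The fit with the replicate number as a block gave −0.26 ± 0.09 (adjusted p = 0.227).

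Gzmb was at 5928, 7375, 6736, 6326 and 8903 CPM in NT 1 to NT 5, and at 5577, 6930, 5119 and 5825 CPM in LSD1i 1 to LSD1i 4. NT 5 was again the highest library, and LSD1i 2 lay above 3 of the 5 NT libraries. The log2 fold change was −0.27 ± 0.13 (SE, adjusted p = 0.395, edgeR), or −0.16 (adjusted p = 0.492) without NT 5. Raw Gzmb was also lower in LSD1i at each shared replicate number, a pattern not counted over all genes. The blocked fit gave −0.18 ± 0.10 (adjusted p = 0.454). Batch correction hardly touched Gzmb, moving its log2 CPM by −0.01 to 0.08. Its reads made up 0.501% to 0.927% of all batch-corrected counts of a library. Among the counts of the 9 granzymes, Gzmb took between 99.69% and 99.91%, so the remaining 8 granzymes together were a minor part of granzyme RNA in both groups.

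Gzmc, the granzyme C gene of the duplicated group, was lower in LSD1i in the batch-corrected counts. Its levels were 5.34, 10.4, 4.78, 5.65 and 10.6 CPM in NT 1 to NT 5, from 140, 158, 101, 107 and 238 counts. In LSD1i 1 to LSD1i 4 they were 2.15, 2.68, 2.28 and 3.59 CPM, from 39, 52, 39 and 76 counts. The highest LSD1i library lay below the lowest NT library. Such a gap was seen for 1 of the 10 genes, and for 3.46% of all tested genes. The mean fell from 7.36 ± 2.89 to 2.68 ± 0.649 CPM (SD, n = 5 and n = 4), a log2 fold change of −1.44 ± 0.29 (SE, adjusted p = 0.0192, edgeR). Without NT 5 it was −1.26 ± 0.27 (adjusted p = 0.0300).

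The call for Gzmc did not hold in every fit. In raw counts under the batch-corrected names the groups overlapped. Levels were 3.57, 5.42, 6.05, 7.60 and 17.3 CPM for the NT replicates in order, and 1.31, 1.55, 3.10 and 5.52 CPM for LSD1i. The correction raised Gzmc in all 4 libraries of replicates 1 and 2, by 0.58 to 0.94 on the log2 scale, and lowered it in all 5 of replicates 3 to 5, with changes of −0.71 to −0.34. With the batch as a term those raw counts gave −1.40 ± 0.34 (adjusted p = 0.0786), in a fit that called 1.85% of genes. With the replicate number as a block they gave −1.10 ± 0.22 (adjusted p = 0.0293), in a fit that called 2.95%. The numbers are not established as pairs. Under the names of the raw table the value was −0.62 ± 0.65 (adjusted p = 0.999), in a fit that called 0.0% of 11916 genes. That fit had 172 genes at an unadjusted p under 0.05, and adding the replicate block to it turned Gzmc to 0.38 (adjusted p = 0.886). Within a batch the effect was −1.65 in replicates 1 and 2 and −1.24 in replicates 3 to 5, neither past the threshold (adjusted p = 0.373 and 0.341). Leaving out LSD1i 1, LSD1i 2 or LSD1i 3 also ended the call, with adjusted p-values of 0.0733, 0.0519 and 0.0654.

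**Figure D2:**
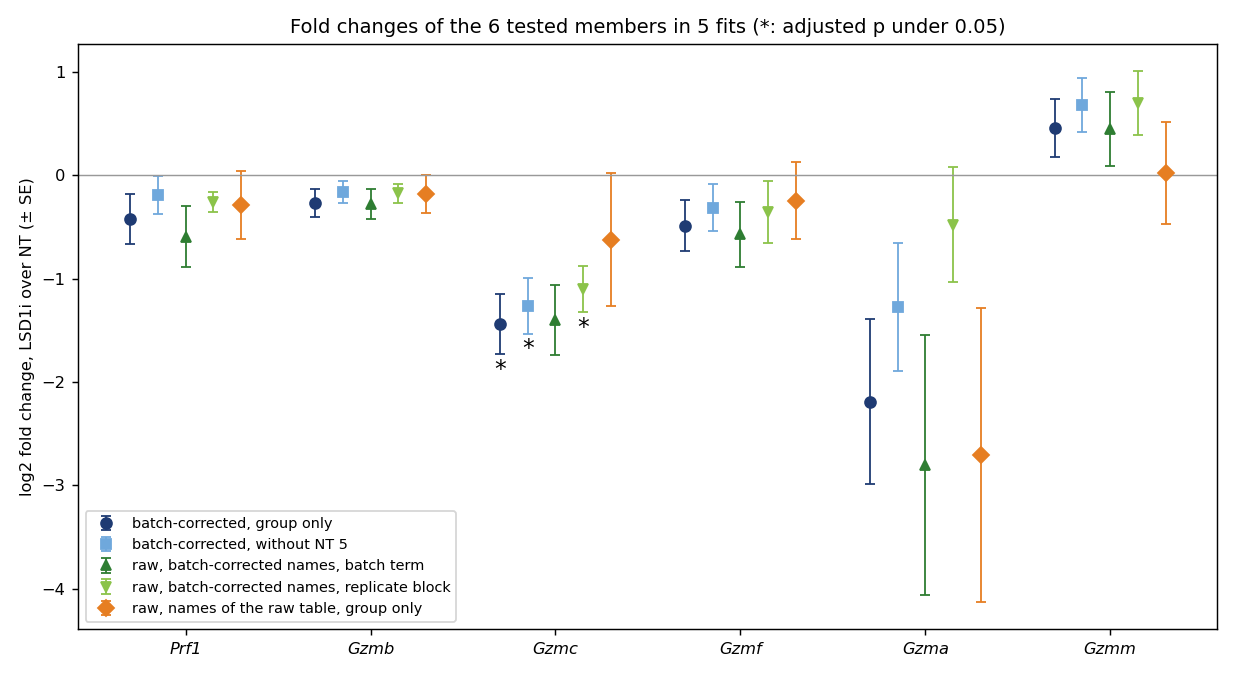
Log2 fold change of LSD1i over NT (vertical axis, points with SE bars) for the 6 genes that passed the filter, in 5 fits told apart by symbol and color; stars mark an adjusted p under 0.05. Gzmc carries a star in 3 of the fits, at −1.44, −1.26 and −1.10, no other gene does in any, and Gzma has the widest bars.

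**Figure D3:**
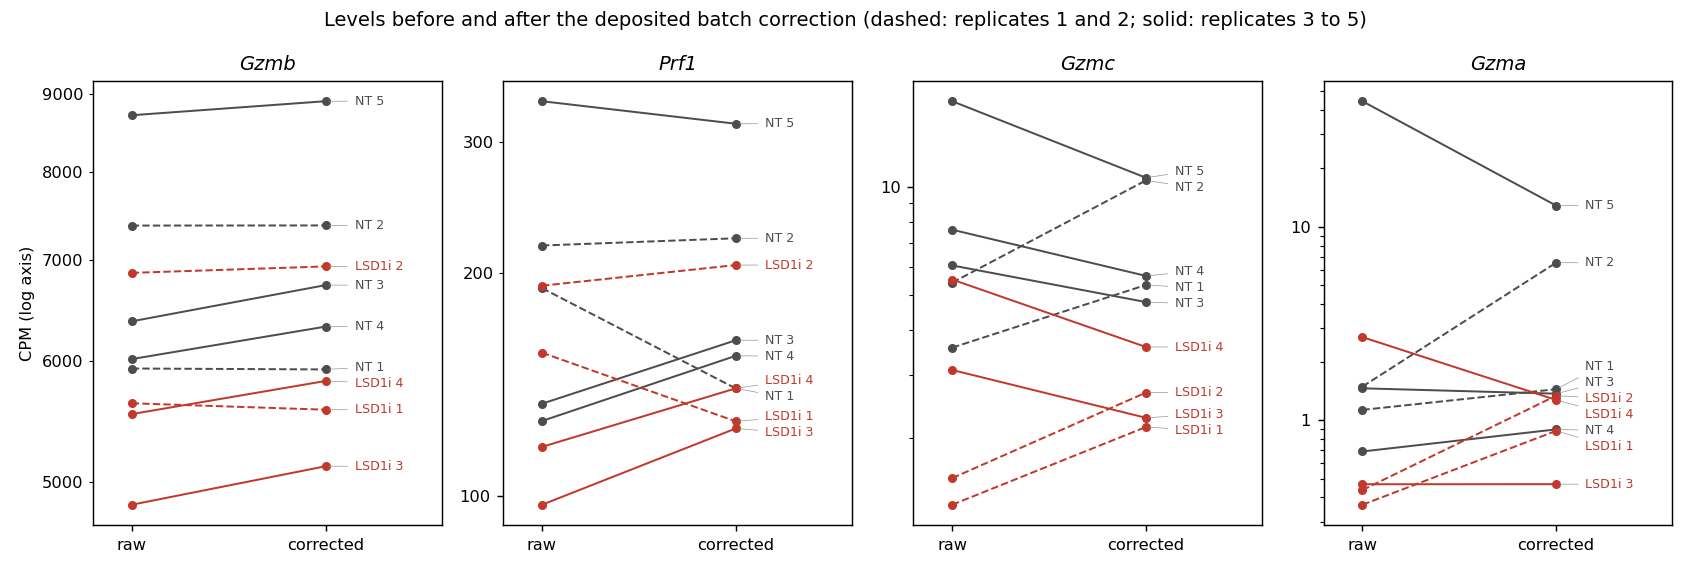
CPM (log axes) of Gzmb, Prf1, Gzmc and Gzma in raw and batch-corrected counts, 1 line per library, gray for NT and red for LSD1i. The lines of Gzmb are nearly level, while for Gzmc the dashed lines (replicates 1 and 2) rise and the solid lines (replicates 3 to 5) fall.

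Set against Gzmb within each library, a ratio that no scaling of libraries changes, there were 0.900, 1.41, 0.710, 0.894 and 1.19 Gzmc reads per 1000 Gzmb reads in NT 1 to NT 5. The LSD1i libraries held 0.386, 0.387, 0.446 and 0.616, all below every NT library. The mean log2 ratio was lower in LSD1i by a difference of −1.13 (exact permutation test, two-sided p = 0.0159, the smallest that 126 arrangements allow). The ratio was chosen with earlier results of these data known. It rests on the same Gzmc counts, so it is no separate support for the Gzmc call. In raw counts the means were 1.11 ± 0.550 and 0.524 ± 0.370 per 1000 (SD, n = 5 and n = 4), the groups overlapped, and the difference was −1.22 (exact permutation p = 0.111). Permuting those within batch gave an exact permutation p of 0.0667, where 0.0333 is the smallest possible. Under the names of the raw table the difference was 0.14 (exact permutation p = 0.841).

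**Figure D4:**
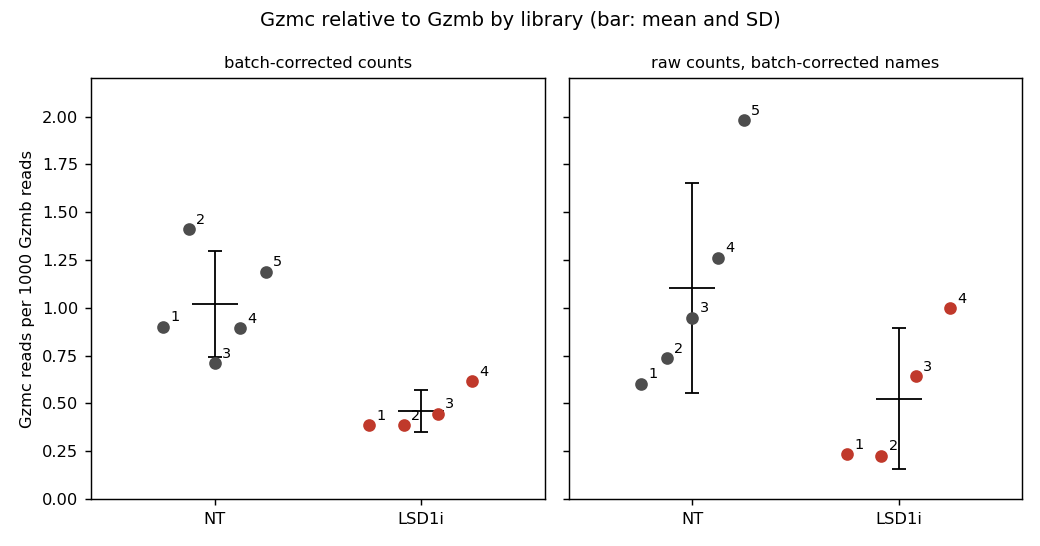
Gzmc reads per 1000 Gzmb reads (linear axis from 0) in each library, in batch-corrected counts on the left and in raw counts with the same names on the right; numbers give the replicate and bars the mean and SD. The groups are apart on the left, 0.710 to 1.41 in NT and 0.386 to 0.616 in LSD1i, and overlap on the right.

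The promoters show how closely the genes beside Gzmc resemble it and how Gzmb differs. RefSeq windows of 300 bases (GRCm38.p6, 250 before and 50 after the annotated start) matched all 10 genes, with 11 windows since Gzmm has 2. The windows of Gzmb and Gzmc are shown as the abundant granzyme of the cluster and the one called lower. They lie on the minus strand at chr14:56262285-56262584 and chr14:56234608-56234907. Capitals mark matches to RUNX (TGTGGT, or ACCACA where the match is on the opposite strand), AP-1 (TGANTCA), CRE (TGACGTCA), T-box (TCACAC) and STAT (TTCNNNGAA) letters.
Gzmb: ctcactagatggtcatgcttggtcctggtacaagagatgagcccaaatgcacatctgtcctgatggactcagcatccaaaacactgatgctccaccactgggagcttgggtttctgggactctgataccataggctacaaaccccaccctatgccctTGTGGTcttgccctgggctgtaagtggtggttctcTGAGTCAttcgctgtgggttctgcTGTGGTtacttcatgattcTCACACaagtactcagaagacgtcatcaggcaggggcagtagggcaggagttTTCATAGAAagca
Gzmc: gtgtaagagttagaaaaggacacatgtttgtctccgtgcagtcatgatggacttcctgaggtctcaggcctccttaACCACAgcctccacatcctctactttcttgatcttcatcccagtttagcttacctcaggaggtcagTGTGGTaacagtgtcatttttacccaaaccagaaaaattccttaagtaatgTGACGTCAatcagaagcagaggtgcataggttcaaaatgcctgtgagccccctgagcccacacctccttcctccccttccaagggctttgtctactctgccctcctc

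Motifs were searched on both strands, and no matches overlapped each other in these windows. A RUNX match occurred in 9 of the 10 genes (not in Gzmk) and in 16.8% of 32851 mouse windows. Counted from the start, Gzmc had RUNX matches at −174 to −169 and −108 to −103 and Gzmb at −93 to −88 and −34 to −29. The CRE letters, which CREB and ATF proteins bind, were found in Gzmc (−57 to −50), Gzmf (−82 to −75) and Gzmg (−77 to −70), 3 of 10 genes, and in 1.79% of all windows. AP-1 letters occurred in Gzmb alone, where 7.81% of all windows have them. T-box letters, bound by T-bet and Eomes, were in Gzmb, in Gzmk and in the Gzmm window not drawn in the motif map (14.5% of all windows), STAT letters in Gzmb and Gzmm (8.30%) and ETS letters (CCGGAA) in Gzmk (14.9%). GFI1 letters (AAATCAC, 3.20%) and TATA letters (TATAAA, 13.6%) were in none of the 10. Counts over the duplicated genes are not independent, because their windows are near copies.

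The stretch from the RUNX match nearest the start to the CRE position shows that copying. Each has 45 bases between the capitals, which mark the RUNX letters and the CRE position, and all are minus-strand GRCm38.p6 sequence: Gzmc at chr14:56234701-56234771, Gzmf at chr14:56211476-56211546, Gzmg at chr14:56159643-56159713, Gzmd at chr14:56132641-56132711 and Gzme at chr14:56120674-56120744.
Gzmc: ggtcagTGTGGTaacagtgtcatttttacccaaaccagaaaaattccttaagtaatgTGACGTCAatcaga
Gzmf: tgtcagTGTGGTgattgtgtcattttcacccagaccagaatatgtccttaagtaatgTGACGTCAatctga
Gzmg: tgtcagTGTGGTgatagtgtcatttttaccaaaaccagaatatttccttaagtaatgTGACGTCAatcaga
Gzmd: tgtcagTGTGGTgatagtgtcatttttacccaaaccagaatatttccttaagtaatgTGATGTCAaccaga
Gzme: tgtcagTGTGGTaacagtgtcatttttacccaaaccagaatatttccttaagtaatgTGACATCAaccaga
Counted from the first base of the CRE letters, Gzmd carries C4T and Gzme carries G5A, so neither has an exact match. The best match in the Gzmb window also has 1 substitution (T1A), but lies after the start, at 3 to 10. Identity between whole windows was 79.0% to 93.7% over the 10 pairs of these 5 genes. Between Gzmb and the 5 it was 45.0% to 48.7%, and over all 35 pairs of members other than those 10 it was 41.3% to 52.7%. Over coding sequence the nearest relative of Gzmc was Gzmb at 75.8% identity, ahead of Gzmf at 72.8%, so the promoter and coding comparisons place Gzmb differently. Coding identity between Gzmd and Gzme was 94.8%.

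**Figure D5:**
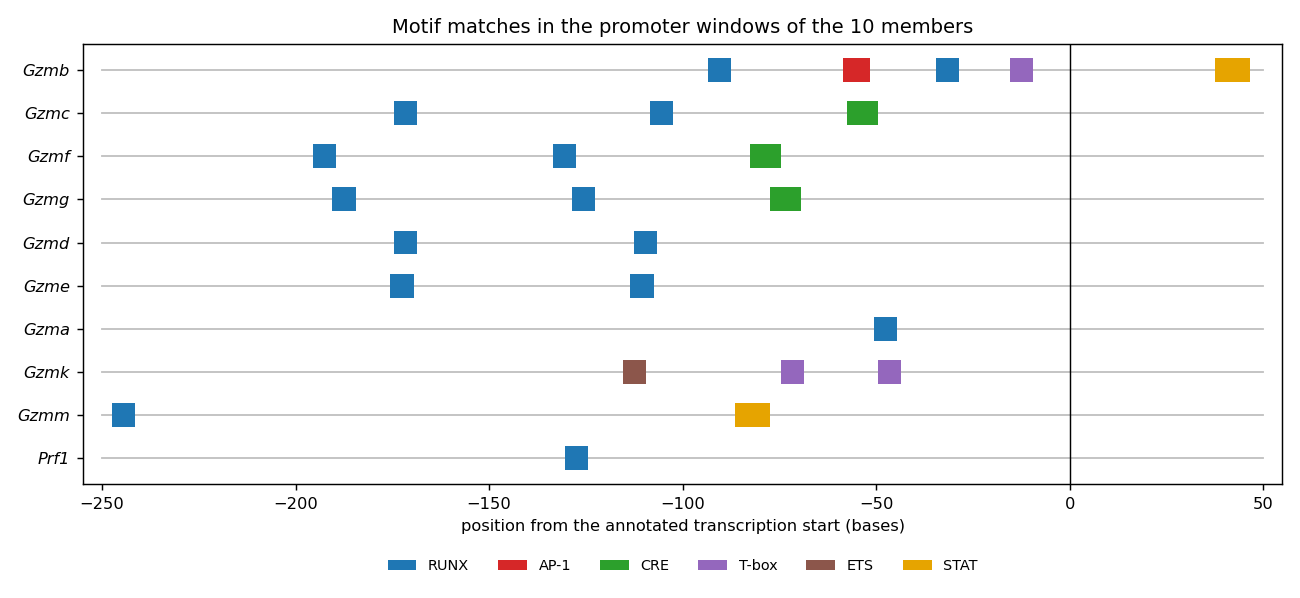
Motif matches (colored blocks) along the promoter windows of the 10 genes, in bases from the annotated transcription start (horizontal axis, line at the start), with 1 of the 2 Gzmm windows drawn. RUNX blocks appear in every row but Gzmk, the Gzmc, Gzmf, Gzmg, Gzmd and Gzme rows hold a pair of RUNX blocks each, and CRE blocks appear in Gzmc, Gzmf and Gzmg.

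The other copies were low, and none passed the test. Gzmf, encoding granzyme F, stood at 1.11, 1.38, 1.18, 0.951 and 1.82 CPM in NT 1 to NT 5 and at 0.99, 0.93, 0.644 and 1.09 CPM in LSD1i 1 to LSD1i 4. The groups overlapped, with a log2 fold change of −0.49 ± 0.25 (SE, adjusted p = 0.404, edgeR). Gzmd, for granzyme D, had batch-corrected counts of 0, 0, 2, 2 and 14 in NT and 0, 0, 2 and 2 in LSD1i. Gzme had 1, 0, 0, 1 and 7 in NT and 1, 0, 1 and 2 in LSD1i, and Gzmg had 3 counts in NT 5, 1 in LSD1i 4 and 0 elsewhere. For these 3 genes a difference between groups was not detectable at this depth. Short reads of the copies can be mistaken for each other. Of the 50-base windows of the Gzmd transcript, 21.9% occur exactly in another granzyme transcript. The share was 20.6% for Gzme, 19.8% for Gzmg, 7.36% for Gzmf, 4.14% for Gzmc and 0% for Gzmb. With 100-base windows it was 0.231% for Gzmd, 0.247% for Gzmg and 0% for Gzme, Gzmf and Gzmc. How far reads can be confused thus depends on their length, which is not stated here. The treatment of multi-mapped reads is unstated in the labels and processing notes, so the low values of Gzmd, Gzme and Gzmg are uncertain, and less so those of Gzmc.

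Gzma, the granzyme A gene, was at 1.45, 6.52, 1.37, 0.898 and 12.9 CPM in NT 1 to NT 5 and at 0.88, 1.34, 0.468 and 1.28 CPM in LSD1i 1 to LSD1i 4. NT 2 and NT 5 stood high, NT 1 and NT 3 lay just above the highest LSD1i library, and NT 4 lay within the LSD1i range. Its log2 fold change of −2.19 ± 0.80 was the largest in size of the 6 tested genes and did not pass (SE, adjusted p = 0.208, edgeR). Before correction NT 5 held 987 Gzma reads and each other library between 7 and 57. On the raw scale NT 5 was at 44.5 CPM, and NT 1 to NT 4 averaged 1.20 ± 0.374 (SD, n = 4). The correction changed NT 5 by −1.79 and NT 2 by 2.13 on the log2 scale, so the high value of NT 2 is present only after correction. Without NT 5 the fold change was −1.27 (adjusted p = 0.338), and −0.38 (adjusted p = 0.840) in raw counts with the batch term. Gzmk, the neighbor of Gzma, had batch-corrected counts of 9, 5, 7, 0 and 13 in NT and 3, 1, 4 and 5 in LSD1i and was not tested.

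Gzmm, the granzyme M gene, was the only tested member with a fold change above 0. It was at 0.65, 0.86, 0.379, 0.687 and 1.11 CPM in NT 1 to NT 5 and at 0.94, 0.98, 0.94 and 1.18 CPM in LSD1i 1 to LSD1i 4. After correction only NT 5 reached the LSD1i range. In raw CPM NT 1 (0.991), NT 2 (1.06) and NT 5 (0.947) all lay within the LSD1i range of 0.643 to 1.41, and the correction moved Gzmm by −0.61 to 1.00 on the log2 scale. The log2 fold change was 0.46 ± 0.28 (SE, adjusted p = 0.521, edgeR) and 0.68 without NT 5 (adjusted p = 0.207). Raw counts were 4 to 28 per NT library and 11 to 29 per LSD1i library.

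NT 5 had the highest level of all 9 libraries for 9 of the 10 genes in the batch-corrected counts, and for 9 of 10 in raw counts, Gzmm being the exception in both. Among all tested genes NT 5 was the highest for 22.5% after correction and 13.6% before it. Its summed markers of natural killer cells, which share granzymes with T cells, were 9.03 CPM, beside 6.71 to 9.03 over NT and 9.85 to 14.9 over LSD1i, with Ncr1, Klra4 and Klra8 at 0 in every library. Mast cell and basophil markers summed to 9.61 CPM in NT 5, the lowest NT value of a range up to 36.1, with 18.2 to 77.7 in LSD1i. That sum was nearly all Kit, since the other 7 had at most 3 counts in any library and Mcpt8, Cma1 and Tpsb2 were at 0 throughout. CD4 T cell markers summed to 28.4 CPM in NT 5, the low end of 28.4 to 46.5 in NT, beside 39.4 to 46.9 in LSD1i, B cell markers to at most 0.410 and myeloid markers to at most 9.60 CPM. The higher natural killer sum in LSD1i was carried by Klri2, which rose from 1.36 to 6.32 CPM (2.19 ± 0.26, adjusted p = 0.000870, edgeR), while Klra7 (−0.39), Klra1 (−0.22) and Klre1 (−0.06) did not pass and the median of the 4 tested was −0.14. Of the CD4 list, nearly all Zbtb7b by level, Cd40lg rose from 0.0895 to 1.21 CPM (3.58 ± 0.54, adjusted p = 0.00295) and Cd4 was at 0.131 and 0.0950 CPM. Cd8a was higher in LSD1i (0.38 ± 0.08, adjusted p = 0.0266), a call lost in raw counts with the batch term (adjusted p = 0.126) and with the replicate block (adjusted p = 0.0548). Their part in the granzyme levels was not tested.

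Across the 9 libraries, described without a test, Gzmb and Prf1 followed each other closely (Pearson r = 0.976, Spearman rho = 0.983 of log2 CPM with a pseudocount of 0.5). Gzma and Gzmf correlated at 0.921 and Gzmb and Gzmc at 0.788, while Gzmm correlated with the other 5 at −0.11 to 0.25. These values share library depth, batch correction and the high NT 5. Of 9879 genes compared, those most like Gzmb were Usp10 (r = 0.991), Paox (0.985) and Psph (0.984). For Prf1 they were Uchl5 (0.987), Lrpprc (0.983) and Skp2 (0.981). Gzmc was most like Tspan9 (0.972), H6pd (0.968) and Ctsd (0.965), and Gzma, over 9880 genes, like Cox15 (0.980), Ubac1 (0.979) and Gne (0.966). Within replicates 1 and 2 and within replicates 3 to 5 of the raw counts, the log2 fold changes were −0.25 and −0.89 for Prf1, −0.11 and −0.43 for Gzmb, −0.44 and −0.68 for Gzmf, −1.69 and −3.24 for Gzma, and 0.42 and 0.48 for Gzmm, in the same order. The Gzma and Prf1 values of replicates 3 to 5 include the high NT 5: raw Gzma was at 44.5 CPM there, beside 1.46 and 0.69 in NT 3 and NT 4 and 0.47 and 2.69 in LSD1i 3 and LSD1i 4. The effect of LSD1i did not pass a test of difference between batches for any of the 6 members (0 of 11916 genes by the edgeR interaction term, 581 at an unadjusted p under 0.05, adjusted p of the members 0.771 to 0.993).

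Genes that load, restrain or release the granule were read from lists chosen with results of these data known. Of 14 tested genes for granule loading and granzyme inhibitors, 0 passed in the batch-corrected counts (edgeR), and the median log2 fold change was 0.01. Nearest were Cst7, which encodes cystatin F, an inhibitor of the granzyme-activating cathepsins (104 to 83.3 CPM, −0.31 ± 0.09, adjusted p = 0.0884), and the serpin Serpinb9b (−0.90 ± 0.27, adjusted p = 0.119). Among 11 tested genes of granule release 0 passed, with Sytl2 at −0.79 ± 0.25 (adjusted p = 0.140) and Stx11 at 0.27 ± 0.10 (adjusted p = 0.237). Over all tested genes 3.31% passed, so 0 calls in lists this short do not set them apart from other genes.

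Of 21 tested transcription factors of the cytotoxic program, 2 were higher and 0 lower, beside 258 higher and 139 lower of all 11981 tested genes. Gfi1, a repressor that recruits LSD1, rose from 134 ± 12.5 to 322 ± 30.4 CPM (SD, n = 5 and n = 4), a log2 fold change of 1.26 ± 0.09 (adjusted p = 3.13e-05, edgeR). Eomes, a T-box activator known to drive Prf1 and Gzmb, rose from 42.2 ± 4.53 to 74.4 ± 8.13 CPM, at 0.82 ± 0.10 (adjusted p = 0.00108). Both passed with the batch term and without NT 5, at 1.27 and 1.22 for Gfi1 and 0.87 and 0.83 for Eomes. Under the names of the raw table they were at 0.09 and −0.26 (adjusted p = 0.999 for both). Notch2 and Rbpj, receptor and nuclear partner of the Notch pathway, stood at −0.55 ± 0.14 (adjusted p = 0.0606, but 0.0209 with the replicate block and 0.0322 without NT 5) and −0.45 ± 0.13 (adjusted p = 0.0858).

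Of 12 tested cytokine receptor and signaling genes 0 passed, beside 3.31% of all tested genes. The nearest were Il2rb, the interleukin 2 receptor beta chain (674 to 857 CPM, 0.35 ± 0.10, adjusted p = 0.0901) and Il12rb1 (−0.24 ± 0.08, adjusted p = 0.165). Il2rb passed with the replicate block (adjusted p = 0.0476) and without NT 5 (adjusted p = 0.0257). Of 5 other killing molecules, Fasl, the ligand that triggers death through Fas, fell from 44.2 ± 11.7 to 21.4 ± 4.81 CPM (SD, −1.05 ± 0.20 on the log2 scale, adjusted p = 0.0165). Its adjusted p was 0.0994 with the batch term and 0.102 with the replicate block. Ifng (−1.12 ± 0.37, adjusted p = 0.155) and Lta (−0.79 ± 0.30, adjusted p = 0.223) did not pass. The 9 protease genes beside the granzyme cluster, such as Gzmn and the mast cell proteases, had at most 2 counts in any library.

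In the authors' deposited table all 10 genes were listed among 20052, where 94 were marked up and 44 down. Gzmc was the only one of the 10 marked, as down, with a log2 fold change of −1.44 and an FDR of 0.0145 in the authors' deposited table. There Gzma had −2.18 (FDR 0.180), Gzmd −1.55 (FDR 0.649) and Gzmk −0.88 (FDR 0.608), and none of these 3 was marked. Eomes (0.83, FDR 0.000332) and Fasl (−1.04, FDR 0.00573) were not marked in the authors' deposited table either. The marks thus do not follow an FDR under 0.05 alone, and their counts are not comparable with the calls above.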

How the data were processed

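Libraries of mouse CD8+ T cells (5 NT, 4 LSD1i) were made with a SMARTer mRNA kit, per the labels' protocols. STAR, featureCounts, edgeR and mm9 are named in the submitters' processing notes, with no version or strand setting. The authors deposited raw counts, estimated counts after a batch correction whose method is unstated (rounded before testing), and a comparison of their own holding log2 fold changes, p-values (FDR) and an F score. Columns went to samples by name within each table. Libraries were matched between tables by genes at zero (0 differed for each matched pair, at least 1336 for the next best).

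Counts were tested with edgeR 4.0.16 (R 4.3.3): quasi-likelihood test, group only, TMM scaling, low-count filter by group (minimum count 10, total 15), Benjamini-Hochberg adjustment at 0.05 over all tested genes, and checked on simulated data. The simulation used a common dispersion, no batches and no outlying library, so it does not show how the test behaves on these counts. The test takes no account of the freedom already spent on batch correction. Errors are SE for log2 fold changes and SD for CPM. Raw counts under either set of names, a batch term, the replicate block, DESeq2 1.42.0, other scalings, no filter and leaving out libraries were alternatives. In raw counts with the batch-corrected names, same-numbered libraries deviated together (r = 0.454 to 0.704), so the numbers were used as a block there. In batch-corrected counts they did not (−0.299 to 0.232). Only group means were taken out, so the raw r values include the batch. In raw counts LSD1i 1 was closer to NT 2 (r = 0.679) and LSD1i 4 to NT 3 (r = 0.546) than to their own numbers. The numbers are therefore not established as pairs. Batches came from the corrected-to-raw log2 ratio over 9618 genes (r = 0.755 to 0.980 within, −0.962 to −0.790 between). Exon lengths came from GENCODE M21 and promoter windows from RefSeq (GRCm38.p6). Members and lists were chosen with earlier results of these data known. All 10 members are named, and of each list every gene that passed and the 2 nearest to passing.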

Additional observations from a re-analysis of the deposited data

Results flagged for a closer look

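Single libraries stood apart for 3 of the duplicated granzymes at levels of a few reads. NT 5 was far from the other 4 NT libraries for Gzmd (0.623 CPM), Gzme (0.311 CPM) and Gzmg (0.133 CPM). LSD1i 4 was far from the other 3 LSD1i libraries for Gzmg (0.0472 CPM, 1 count). These 4 were found among 20 groups examined, of which chance flags about 1 in 20, and genes at a few counts or 0 give such gaps easily. In 3 of the 4 the library was NT 5.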

How the results depend on the processing

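Gzmc was lower and passed in the batch-corrected counts with DESeq2 (adjusted p = 4.1e-05), RLE size factors (0.0186), no scaling (0.0235), no low-count filter (0.00461) and the replicate block (−1.25, adjusted p = 0.0179). The number of members called lower, 1 in the batch-corrected counts, was 0 in raw counts under the names of the raw table, group only or with the replicate block (0 genes called in all by edgeR, 172 and 686 at an unadjusted p under 0.05), and 0 in raw counts with the batch-corrected names, group only, with the batch term, within replicates 3 to 5 alone, within replicates 1 and 2 alone, and with the batch term and NT 5 left out, the last chosen after seeing the data. Leaving out 1 library at a time gave 0 to 1. With the replicate block, the names of the raw table turned Gzma to 0.96, Gzmc to 0.38 and Gzmf to 0.069, and their group-only ratio of Gzmc to Gzmb was 0.14. The ratio was −1.22 in raw counts with the batch-corrected names, over all libraries and within batch. In the batch-corrected counts, where the numbers did not pair the libraries, it was −1.07 with replicates 1 to 4 as pairs (replicate block, exact permutation p = 0.125, the smallest possible). The cause of these changes was not tested. Over all genes the calls were 397 in the batch-corrected counts, 667 with DESeq2, 220 with the batch term, 84 for raw counts with those names and no batch, 117 and 8 within replicates 3 to 5 and 1 to 2, 219 without LSD1i 4, 228 without LSD1i 1, 251 without LSD1i 3, 265 without NT 2 or NT 4, and 320 against 0 for the interaction without the filter. Prf1, Gzmb, Gzmm, Gzma and Gzmf passed in none of 22 alternatives. Values of Prf1, Gzmb and Gzmm ran from −0.89 to −0.023, −0.43 to −0.085 and 0.019 to 0.71. Those of Gzma and Gzmf changed sign, from −3.29 to 0.96 and from −0.68 to 0.069. Gzmd, Gzme, Gzmg and Gzmk are limited by depth.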
